A study of Mus musculus with 2 samples.

Results

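The 44 genes described here carry the signal of the T cell receptor from the cell membrane to calcium and the NFAT transcription factors, together with the proteins that restrain it. They were chosen by function, as a list of gene symbols, and all 44 were found among the 41592 genes of the deposited table. Of these, 27 encode activators, 13 encode inhibitors, and 4 encode proteins with reported roles of either sign (Ptprc, Themis, Trat1 and Cd6). Levels were measured by RNA-seq in splenic and lymph node CD4+ T cells. The donors were C57BL/6 mice, 6 to 8 weeks of age, of genotype Foxp3 ΔCNS1-Cre-R26-YFP. In these mice Foxp3 sequence without CNS1, a conserved enhancer of that gene, drives Cre, and YFP at Rosa26 labels each cell that has had Cre activity and its descendants. The genotype, the YFP signal and the CD4 enrichment are common to both samples. One sample was sorted as Thy1.1-negative and YFP-positive, the other as Thy1.1-positive and YFP-positive. The question was how regulatory T (Treg) cells made in the thymus compare with precursors of exFoxp3 cells. Since the stated markers of both coincide, the samples are called by their titles. The labels used here do not say what Thy1.1 reports in these mice or how many animals were pooled. With 1 library for each, there is no replicate error and no test. Paired values are given with the Thy1.1-negative cells first.

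When the receptor binds antigen, Src family kinases phosphorylate its CD3 chains, the kinase Zap70 docks there, and it phosphorylates the adaptors Lat and Lcp2. The complex that forms on Lat activates phospholipase C-gamma, whose products open calcium stores and recruit Rasgrp1 and protein kinase C-theta. Emptied stores are sensed by the Stim proteins, which open the Orai channel, and the calcium that enters lets calcineurin dephosphorylate NFAT so that it moves to the nucleus. Treg cells depend on this pathway for their thymic selection and their suppressive function, and Foxp3 itself partners with NFAT.

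Both libraries held high levels of T cell genes and of Foxp3, the Treg lineage factor, which stood at 158 and 237 FPKM. FPKM counts fragments per kilobase of gene, scaled to the depth of the library. The 4 Treg markers together reached 1741 and 1908 FPKM. Among them Il2ra, the interleukin-2 receptor alpha chain, stood at 98.8 and 205 FPKM, Ikzf2 at 328 and 362 FPKM and Ctla4 at 1156 and 1105 FPKM. The summed level of 6 T cell markers was 2300 against 1909 FPKM. The 8 B cell markers together reached 9.72 and 7.59 FPKM, with Ms4a1 at 0.0935 and 0.0745. The 6 myeloid markers together reached 14.4 and 10.1 FPKM, with Lyz2 at 0.298 and 0.212 and Itgam at 4.17 and 0.272. The 4 natural killer cell markers reached 4.54 and 3.81 FPKM, with Klrb1c at 2.08 and 0.445, Eomes at 2.22 and 3.00, Klrd1 at 0.230 and 0.153 and Ncr1 at 0 and 0.218. The summed level of 5 cell division markers was 72.4 against 14.4 FPKM, a ratio of 5.03, and each of the 5 was higher in Thy1.1-negative cells. The part of these marker differences in the values below was not tested. In bulk RNA, fewer cells of a type and less RNA per cell cannot be told apart. Depth was 18536339 and 18600581 counted reads.

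The receptor pathway was expressed at high and similar levels in both libraries. The median member stood at 76.5 and 67.6 FPKM, against 13.5 and 12.7 FPKM for all 12820 genes with a mean of at least 1 FPKM. All 44 members passed that minimum. Ptprc was the most abundant, at 669.6 and 577 FPKM, and Sla2 the least, at 9.83 and 8.24 FPKM. No member differed by 2-fold, a difference of at least 1 in log2(FPKM + 1), where 3.08% of all 12820 genes did. All differences are given as Thy1.1-negative minus Thy1.1-positive. At 1.5-fold, Malt1 and Themis were higher in Thy1.1-negative cells, 2 of 44 members against 5.81% of all genes, and no member was lower, against 3.85% of all genes. After rescaling by the upper quartile of values above 0, 7 members were 1.5-fold higher, against 13.4% of all genes: Zap70, Lcp2, Nfatc1, Stim1 and Sla besides Malt1 and Themis.

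**Figure D1:**
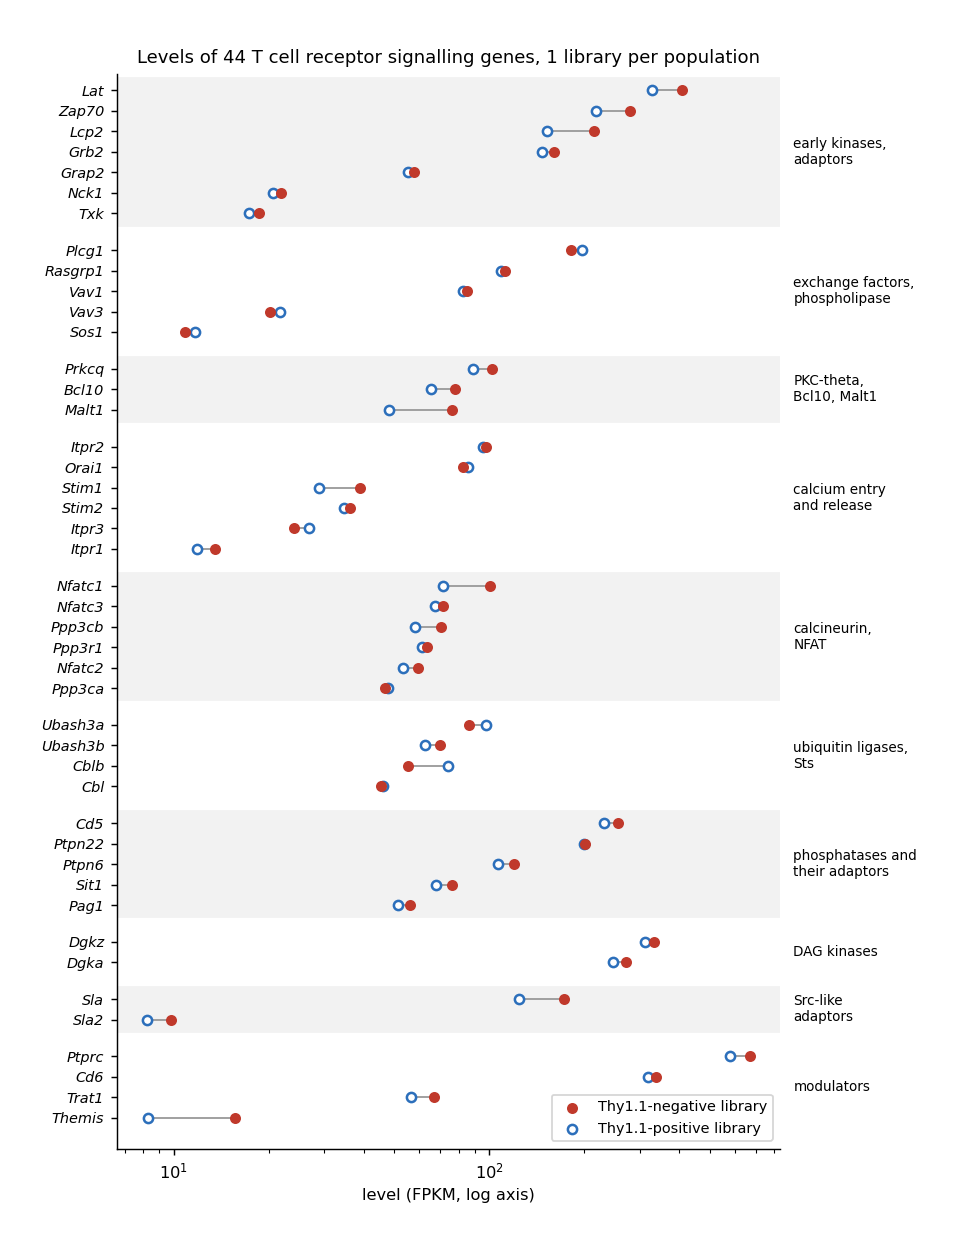
Level of each of the 44 members in FPKM on a log axis, filled points for the Thy1.1-negative and open points for the Thy1.1-positive cells, grouped by role. The points of most genes lie close together, and the widest gaps are those of Themis, at 15.7 against 8.27 FPKM, and Malt1, at 76.5 against 48.2 FPKM.

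Most members nevertheless lay on the same side. In 35 of 44 the value was higher in the Thy1.1-negative cells, against 55.1% of all genes, and the median difference was 0.12 on the log2 scale, against 0.03 for all genes. A counting interval, the 95% interval of the ratio of FPKM values that the number of reads allows, lay above 1 for 26 members and below 1 for 5. Among all genes these shares were 27.4% and 19.2%. Well-expressed genes have more reads and narrower intervals: among the 7410 genes at or above the mean level of the lowest member, the shares were 34.6% and 23.9%. The spread was narrower than that of those genes, with a standard deviation of 0.23 over the members and 0.31 over the 7410 genes. The count of 35 depends on how the libraries are scaled. Rescaled by the upper quartile of values above 0, the median of all genes was 0.26 and that of the members 0.37. Then 43 of 44 members lay above 0, against 82.6% of all genes. The distance of the members' median to the median gene was 0.09 as deposited and 0.11 after this rescaling, while as deposited 34 of 44 exceeded the median gene. Cblb was the member that stayed below 0 under each of the 4 rescalings.

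**Figure D2:**
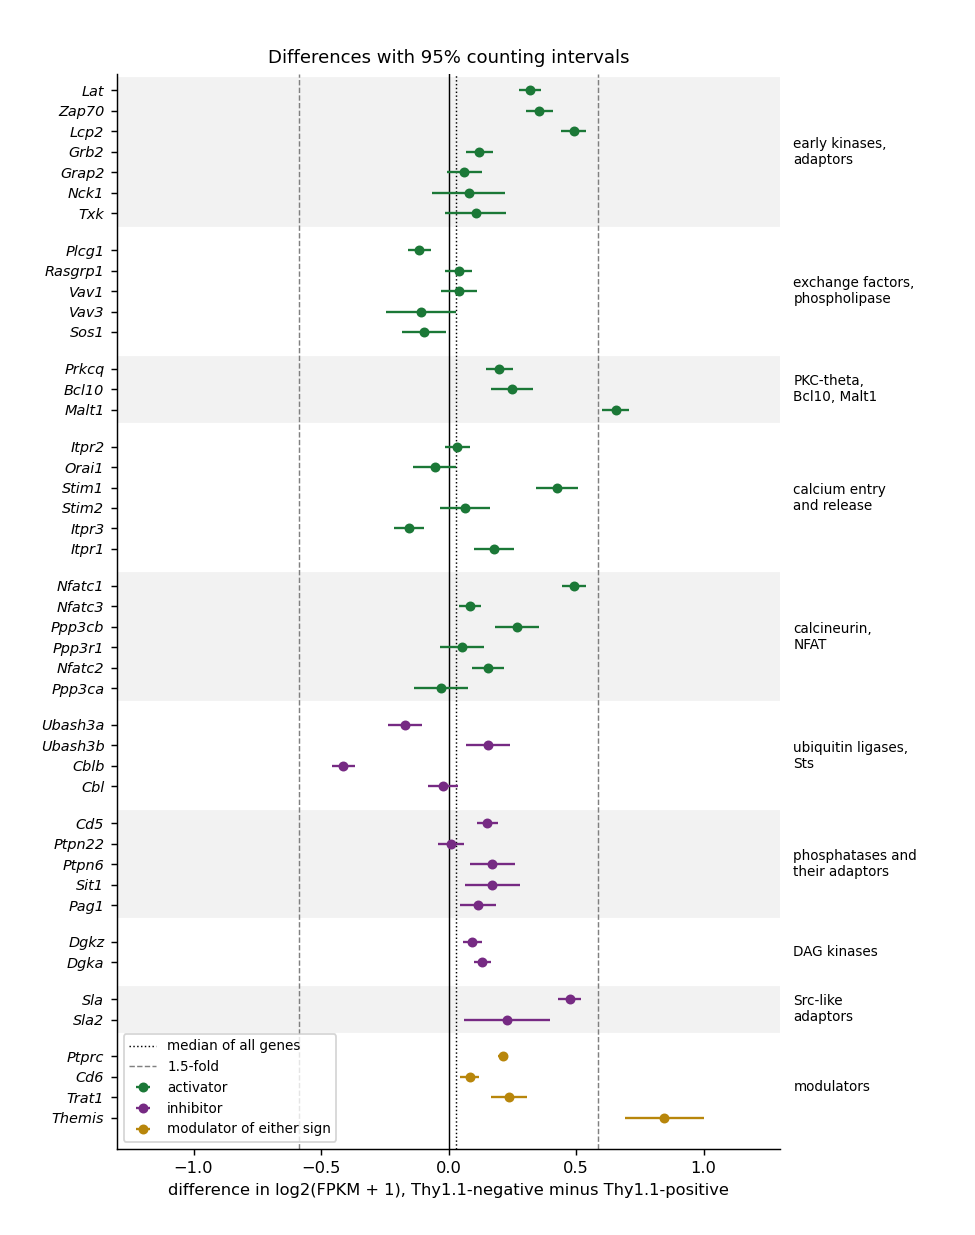
Difference in log2(FPKM + 1) for each member with its 95% counting interval, coloured by role, with lines at 0, at the median of all genes (0.03) and at 1.5-fold. Themis and Malt1 lie beyond the upper 1.5-fold line, Cblb at -0.41 is the lowest, and the other members lie between -0.17 and 0.49; points below 0 other than Cblb lie above 0 after rescaling by the upper quartile.

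The members with the widest differences that had an entry in the RefSeq promoter table were Themis, Lcp2, Stim1 and, on the other side, Cblb. The 250 bases before their annotated transcription start are printed to show what lies in front of the genes that differed most (RefSeq, build GRCm38.p6, while the table was made on mm9). Capitals mark the letters GGAAA, the core that NFAT proteins bind, on either strand. This core also contains the GGAA of Ets factors.
Themis, chr10:28668110-28668359, plus strand: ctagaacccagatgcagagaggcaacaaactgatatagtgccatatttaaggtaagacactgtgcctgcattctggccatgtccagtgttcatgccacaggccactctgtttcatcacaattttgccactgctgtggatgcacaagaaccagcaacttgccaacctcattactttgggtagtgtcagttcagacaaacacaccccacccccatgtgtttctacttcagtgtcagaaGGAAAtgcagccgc
Lcp2, chr11:34046678-34046927, plus strand: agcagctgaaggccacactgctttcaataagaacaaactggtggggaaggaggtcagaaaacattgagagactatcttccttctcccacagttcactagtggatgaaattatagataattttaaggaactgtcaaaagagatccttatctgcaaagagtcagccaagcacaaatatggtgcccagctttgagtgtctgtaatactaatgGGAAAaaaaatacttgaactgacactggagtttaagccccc
Stim1, chr7:102267569-102267818, plus strand: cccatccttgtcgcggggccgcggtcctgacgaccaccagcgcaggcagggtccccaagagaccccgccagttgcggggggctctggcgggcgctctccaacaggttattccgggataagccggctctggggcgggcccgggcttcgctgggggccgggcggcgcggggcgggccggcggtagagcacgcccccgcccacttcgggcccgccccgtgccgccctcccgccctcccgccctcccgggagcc
Cblb, chr16:52031299-52031548, plus strand: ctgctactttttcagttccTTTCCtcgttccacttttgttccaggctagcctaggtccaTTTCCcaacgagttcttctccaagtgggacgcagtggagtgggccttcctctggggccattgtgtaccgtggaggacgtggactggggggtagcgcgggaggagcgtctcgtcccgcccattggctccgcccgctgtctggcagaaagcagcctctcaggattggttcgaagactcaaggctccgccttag
The core occurred 1 time before Themis and before Lcp2, 2 times before Cblb and 0 times before Stim1. Over the 37 members with an entry, 34 of 54 windows, 63.0%, held it, beside 55.6% of all 32851 windows in the table. The AP-1 letters TGANTCA, searched on both strands, were in 1 of the 54 windows and in 6.75% of all windows. The Runx letters TGTGGT, also searched on both strands, were in 6 of 54 and in 14.0% of all windows. None of the 4 printed windows held the AP-1 or the Runx letters. These are matches of letters, not measured binding.

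The early kinases and adaptors were all higher in the Thy1.1-negative cells, 7 of 7 under every rescaling tried. Among all genes, 55.1% were higher there as deposited and 49.6% to 82.6% after the rescalings. Lat, the membrane scaffold on which the signalling complex assembles, stood at 409 FPKM against 328 FPKM, a ratio of 1.25 (1.21 to 1.29). Zap70, the kinase that phosphorylates it, was at 278 against 217 FPKM, a ratio of 1.28 (1.23 to 1.33). Lcp2, which encodes the adaptor SLP-76, led this group at 215 against 152 FPKM, which is 1.41 (1.36 to 1.46). The intervals of Lat, Zap70 and Lcp2 did not overlap those of the other 4 genes of the group. Grb2, the adaptor that brings the Ras exchange factor Sos to Lat, was at 160.3 and 147 FPKM, a ratio of 1.09 (1.05 to 1.13). For Grap2, which encodes Gads, the link between Lat and SLP-76, levels were 57.8 and 55.4 FPKM, and the interval of 0.995 to 1.096 included 1. Nck1, an adaptor to the actin machinery, and Txk, a Tec family kinase, were lower expressed, at 21.9 against 20.7 and at 18.7 against 17.3 FPKM. The intervals of both included 1. Of the exon bases of Lcp2 in the GENCODE M21 annotation, 6.32% are shared with 4930469K13Rik on the other strand, a gene at 4.56 and 3.77 FPKM.

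The enzymes recruited to this complex were nearly level. Plcg1, the phospholipase that splits the membrane lipid PIP2, stood at 182 and 197 FPKM, a ratio of 0.924 (0.895 to 0.953). Vav1, a guanine nucleotide exchange factor, was at 85.2 and 82.8 FPKM, and its relative Vav3 at 20.2 and 21.8 FPKM. Both intervals included 1. Rasgrp1, the Ras exchange factor that diacylglycerol recruits, was at 112 and 109 FPKM, with 1 inside its interval of 0.992 to 1.07. Sos1, the other Ras exchange factor of the list, was at 10.8 and 11.7 FPKM, a ratio of 0.929 (0.871 to 0.991). The median of these 5 genes was -0.10, but Plcg1, Vav3 and Sos1 lay above 0 after rescaling by the upper quartile, at 0.14 each.

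In the branch that leads to NF-kB, Malt1 differed most. Protein kinase C-theta, encoded by Prkcq, switches on a complex that holds Bcl10 and the protease Malt1. Malt1 stood at 76.5 against 48.2 FPKM, a ratio of 1.59 (1.53 to 1.65). Its difference of 0.66 stayed past 1.5-fold under every scaling, pseudocount and filter tried. Bcl10 was at 78.1 against 65.5 FPKM, a ratio of 1.19 (1.13 to 1.26), and Prkcq at 102 against 88.7 FPKM, a ratio of 1.15 (1.11 to 1.19). In the Thy1.1-positive cells Malt1 was the least abundant of these 3, and in the Thy1.1-negative cells it was level with Bcl10. The 3 members all lay above 0 under every rescaling tried, where 49.6% to 82.6% of all genes did. Outside the list, Traf6 and Tab2, which act downstream of Malt1, had ratios of 0.879 (0.837 to 0.923) and 0.922 (0.888 to 0.956). Both ratios exceeded 1 after rescaling by the upper quartile.

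Among the calcium genes, the sensor Stim1 had the highest ratio of the members. Stim1, which senses calcium in the endoplasmic reticulum, was at 39.0 FPKM against 28.8 FPKM, a ratio of 1.35 (1.28 to 1.44). Its relative Stim2, which responds to smaller store losses, was at 36.2 and 34.6 FPKM, a ratio of 1.05 (0.975 to 1.12). Stim1 therefore made up 51.9% of the summed Stim level in the Thy1.1-negative cells and 45.5% in the Thy1.1-positive cells. Orai1, the pore of the store-operated channel, was at 82.7 and 86.0 FPKM, with 1 inside its interval of 0.908 to 1.02. The less abundant Orai2 and Orai3, channel genes outside the list, had ratios of 1.204 (1.13 to 1.28) and 1.253 (1.04 to 1.51). The inositol trisphosphate receptors release calcium from the stores, and Itpr2 was the main one by level. It stood at 97.9 and 95.5 FPKM, 72.3% and 71.2% of the summed level of the family. This share depends on the gene lengths behind the values, which came to 3670 bases for Itpr2, 8990 for Itpr3 and 9848 for Itpr1. In reads the 3 genes were closer, with 6662 and 6522 for Itpr2, 4004 and 4491 for Itpr3, and 2471 and 2170 for Itpr1. Itpr3 was at 24.0 and 26.9 FPKM, with a ratio of 0.895 (0.857 to 0.934) that lay above 1 after rescaling by the upper quartile. Itpr1 was at 13.5 and 11.8 FPKM, a ratio of 1.14 (1.08 to 1.21).

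Of the calcineurin and NFAT genes, Nfatc1 differed most, followed by the calcineurin subunit Ppp3cb. Nfatc1, the NFAT gene whose transcription is itself induced by NFAT, stood at 101 FPKM against 71.4 FPKM, a ratio of 1.41 (1.37 to 1.46). Nfatc2 was at 59.5 and 53.3 FPKM, a ratio of 1.12 (1.07 to 1.17), and Nfatc3 at 71.5 and 67.3 FPKM, a ratio of 1.06 (1.028 to 1.095). Nfatc1 was the most abundant of these 3 in both libraries, with 43.5% of their summed level in the Thy1.1-negative and 37.2% in the Thy1.1-positive cells. Ppp3cb, a catalytic subunit of calcineurin, was at 70.1 against 58.0 FPKM, a ratio of 1.21 (1.14 to 1.28). The other catalytic subunit, Ppp3ca, was at 46.7 and 47.7 FPKM, with 1 inside its interval of 0.909 to 1.06. The regulatory subunit Ppp3r1 was at 63.5 and 61.2 FPKM, with an interval of 0.977 to 1.103. It shares 14.3% of its exon bases with Wdr92 on the same strand, a gene at 5.16 and 6.21 FPKM, so reads there may not be assigned to 1 gene. Rcan1, a calcineurin inhibitor that NFAT induces and not a member, was at 4.92 and 4.81 FPKM, with an interval of 0.839 to 1.25. Its more abundant relative Rcan3, also outside the list, was at 26.1 and 32.1 FPKM, a ratio of 0.813 (0.749 to 0.883). Rcan2 was hardly detected, at 0.0854 and 0.0425 FPKM.

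**Figure D3:**
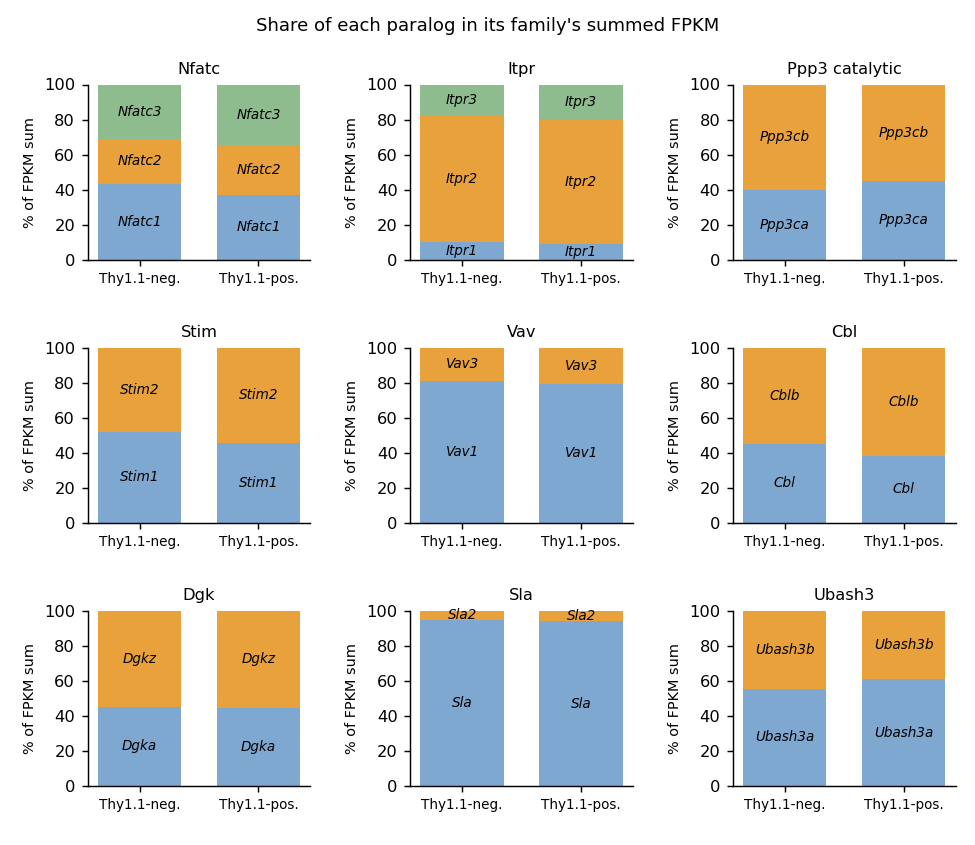
Share of each paralog in the summed FPKM of its family, 1 bar per library, for 9 families of members. Shares depend on the gene lengths behind the FPKM values. The shares that differ most are those of Cblb, 55.0% against 61.7%, Stim1, 51.9% against 45.5%, and Nfatc1, 43.5% against 37.2%.

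The inhibitors lay on both sides of 0, in Cblb under every rescaling tried on the lower side. The ubiquitin ligase Cblb, which sets the threshold for activation without costimulation, was the member with the lowest ratio, at 55.5 against 74.1 FPKM, 0.748 (0.724 to 0.772). After rescaling by the upper quartile its difference was -0.16. Its relative Cbl, which ubiquitinates active kinases and receptor chains, was at 45.4 and 46.0 FPKM, with 1 inside its interval of 0.944 to 1.03. Cblb thus made up 61.7% of the pair's summed level in the Thy1.1-positive cells and 55.0% in the Thy1.1-negative cells. The Sts phosphatases, which remove phosphate from Zap70, went opposite ways as deposited. Ubash3a was at 86.5 and 97.4 FPKM, a ratio of 0.888 (0.848 to 0.930) that lay above 1 after rescaling by the upper quartile. Ubash3b was at 70.0 and 62.8 FPKM, a ratio of 1.12 (1.05 to 1.19).

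The phosphatases and the membrane proteins grouped with them differed little. Ptpn6, the phosphatase SHP-1, was at 120.0 and 106 FPKM, a ratio of 1.13 (1.06 to 1.20). Ptpn22, which acts with the kinase Csk on Lck and Zap70, was level at 201 and 199.6 FPKM, with an interval of 0.971 to 1.04 and a sign that turned under 3 of the rescalings. Cd5, a surface inhibitor whose level on T cells follows receptor signal strength, was at 256 and 231 FPKM, a ratio of 1.11 (1.08 to 1.14). The membrane adaptor Sit1 was at 76.4 and 67.8 FPKM, a ratio of 1.13 (1.05 to 1.22). Pag1, which holds Csk at the membrane, was at 55.9 and 51.6 FPKM, a ratio of 1.08 (1.03 to 1.14). The ratios of Ptpn6, Cd5, Sit1 and Pag1 thus lay within a narrow range.

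The diacylglycerol kinases, which remove the lipid that activates Rasgrp1 and protein kinase C-theta, were among the most abundant members. Dgkz was at 333 and 312 FPKM, a ratio of 1.07 (1.039 to 1.096), and Dgka at 272 and 248 FPKM, a ratio of 1.097 (1.071 to 1.123). Dgkz held 55.1% and 55.7% of their summed level. Sla, which encodes the Src-like adaptor SLAP that brings Cbl to the receptor, had the highest ratio among the inhibitors, at 173 FPKM against 124 FPKM, 1.39 (1.35 to 1.44). Sla2 was at 9.83 and 8.24 FPKM, a ratio of 1.19 (1.05 to 1.36), and 23.6% of its exon bases are shared with Rab5if on the other strand, a gene at 22.5 and 21.1 FPKM. Cblb below 1 and Sla well above it were the ends of the inhibitor group.

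The 4 modulators were all higher in the Thy1.1-negative cells under every rescaling, where 49.6% to 82.6% of all genes were. Themis had the highest ratio of all 44 members. Themis, a partner of Grb2 and SHP-1 that is needed in thymic selection, stood at 15.7 FPKM against 8.27 FPKM, from 823 and 436 reads, a ratio of 1.89 (1.68 to 2.13). Its interval included 2, and its difference on the log2(FPKM + 1) scale was 0.85. Rescaled by the upper quartile it was 1.09, past 2-fold. Ptprc, the phosphatase CD45 that removes the inhibitory phosphate of Lck, was at 669.6 and 577 FPKM, a ratio of 1.16 (1.14 to 1.18). Trat1, the transmembrane adaptor TRIM that associates with the receptor, was at 66.7 and 56.4 FPKM, a ratio of 1.18 (1.12 to 1.24). Cd6, a surface partner of CD5, was at 338 and 319.5 FPKM, a ratio of 1.06 (1.03 to 1.09). Cd5 and Cd6 are adjacent protein-coding genes in the RefSeq annotation of GRCm38.p6, and their intervals overlapped.

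Activators and inhibitors were then set side by side. The median difference was 0.08 over the 27 activators and 0.13 over the 13 inhibitors, a gap of 0.05 between groups that each spread by a standard deviation of 0.21. Of the activators 21 of 27 lay above 0 and 6 below, and of the inhibitors 10 of 13 above and 3 below. Counting intervals above 1 were found for 13 activators and 9 inhibitors, and intervals below 1 for 3 and 2. The shares of all genes were 55.1% above 0, 27.4% with an interval above 1 and 19.2% with one below, and 34.6% and 23.9% for the intervals at the members' range of levels. With Ptprc, Themis and Trat1 counted as activators and Cd6 as an inhibitor, the medians were 0.11 and 0.12 and the gap 0.011. Summed levels of the 27 and 13 genes gave the other order. The activators summed to 2533 and 2205 FPKM, a ratio of 1.15, and the inhibitors to 1754 and 1628 FPKM, a ratio of 1.08. The inhibitor sum was 69.2% of the activator sum in the Thy1.1-negative cells and 73.8% in the Thy1.1-positive cells. The sums rest on the most abundant genes, such as Lat and Dgkz, and the medians do not.

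**Figure D4:**
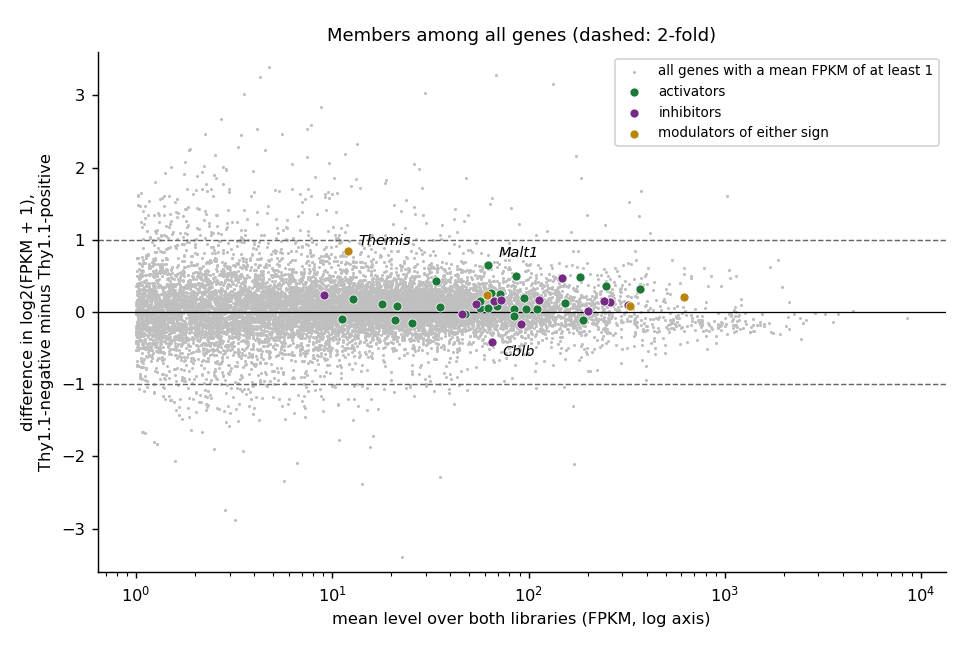
Difference in log2(FPKM + 1) against mean level on a log axis for the 12820 genes with a mean of at least 1 FPKM (grey) and the 44 members by role, with dashed lines at 2-fold. All members lie inside the dashed lines, where 3.08% of all genes lie outside.

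**Figure D5:**
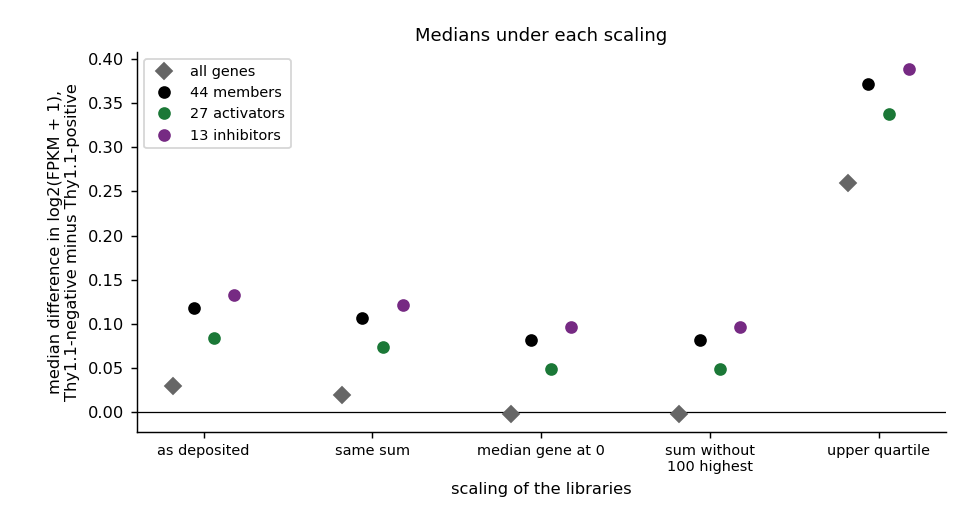
Median difference in log2(FPKM + 1) of all genes, the 44 members, the activators and the inhibitors with the deposited values and after 4 rescalings. The upper quartile lifts all 4 medians, that of all genes from 0.03 to 0.26, and the medians of the members stay above that of all genes in each case.

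A wider list of 84 further genes of the pathway was read in the same way, and 80 of them had a mean of at least 1 FPKM. On the log2(FPKM + 1) scale none differed by 2-fold, against 3.08% of all genes. There 2 were 1.5-fold higher in the Thy1.1-negative cells and 1 was 1.5-fold lower, against 5.81% and 3.85% of all genes. Their median difference was 0.08, with 51 above 0 and 29 below, and counting intervals lay above 1 for 40 and below 1 for 17. Among all genes 55.1% lay above 0, with 27.4% of intervals above 1 and 19.2% below. Among the 7410 genes at or above the mean level of the lowest member, the interval shares were 34.6% and 23.9%. The median level of the wider list was 50.4 and 46.1 FPKM, against 13.5 and 12.7 FPKM for all genes. The 1.5-fold higher genes were Rnf128, a ubiquitin ligase linked to anergy, at 3.23 against 1.56 FPKM, and Ptpn7, a phosphatase of MAP kinases, at 77.5 against 51.1 FPKM. Their ratios were 2.07 (1.51 to 2.87) and 1.52 (1.44 to 1.59). The ratio of Rnf128 passed 2, but at this low level its log2(FPKM + 1) difference was 0.73. Next came Atp2a3, a pump that returns calcium to the endoplasmic reticulum, at 122 against 83.5 FPKM, Wipf1, a partner of the actin regulator WASP, at 192 against 134 FPKM, and Lax1, an inhibitory membrane adaptor, at 95.7 against 68.4 FPKM.

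At the other end was Homer3, a scaffold that competes with calcineurin for NFAT, at 0.888 against 2.27 FPKM, from 23 and 59 reads, a ratio of 0.391 (0.231 to 0.643). Its log2(FPKM + 1) difference was -0.79, short of 2-fold by that rule. Akap5, an anchoring protein for calcineurin, was at 0.775 against 1.31 FPKM, a ratio of 0.590 (0.439 to 0.787) and a difference of -0.38. Nedd4l, a ubiquitin ligase, had a ratio of 0.755 (0.665 to 0.857), and Ptprj, a receptor phosphatase, a ratio of 0.811 (0.764 to 0.861). The Src family kinases Lck and Fyn had ratios of 1.19 (1.16 to 1.22) and 1.21 (1.18 to 1.24). The inhibitors of this wider list were evenly placed as deposited, with 13 of 24 above 0 and a median of 0.03, beside 0.03 for all genes.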

How the data were processed

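Total RNA of 1 library per sorted population was sequenced. The authors deposited FPKM values per Ensembl gene, 1 column per library. The letter P or N in a column name was taken to mean Thy1.1-positive or Thy1.1-negative. Build mm9, HTSeq 0.6.1, TopHat2 2.0.12 and Bowtie2 2.2.3 were used per the submitters' processing notes, which as listed here state no settings or strand use. Symbols matched 96.8% of IDs (GENCODE M21). FPKM allow no count model, and 1 library per population allows no test. Genes were described by log2(FPKM + 1) differences and rules of 2-fold and 1.5-fold at a mean of at least 1 FPKM. The pseudocount understates changes of low genes.

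Whole reads were recovered to learn the depth. Ratios of the deposited values of 23442 genes equalled ratios of whole numbers times 1 factor (relative tolerance 2e-11), and the library total was the value that most genes with over 200 reads gave with the annotated mean transcript length. A gene's multiple had to give a whole length (tolerance 1e-05 bases, met by 99.94% of genes) and was the one nearest to that mean. For 32 of 44 members this length was within 20% of it, and for the others the interval width is less sure, while the ratio is not affected. Levels set side by side between genes, such as shares within a family, depend on the lengths used. The reads so recovered came to 100.7% and 100.6% of the library totals. Members had 430 to 40700 reads. Intervals are exact Clopper-Pearson intervals at 95% of a gene's share of reads, turned into ratios. They cover counting error only, not animals, sorts or library preparation, and PCR copies are not independent. Recovery was tested on simulated data in which each gene had its annotated mean length, rounded. The simulation therefore does not cover genes whose length departs from that mean.

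The members and lists were chosen with earlier results of these data known. Named were all members, and of the wider list the genes past 2-fold (none) and the 5 highest and 5 lowest, besides markers as checks of the sorted cells (T, Treg, B, myeloid and natural killer cells and cell division). Some genes that this rule names are not reported here. Orai2, Orai3, Traf6, Tab2, Rcan1, Rcan2, Rcan3, Lck, Fyn and the genes that overlap members were added after their values were seen. The alternatives were 2 pseudocounts, 2 filters, 2 fold rules, 4 rescalings and another assignment of the modulators. Analyses used Python 3.11.15 with numpy 2.4.6, pandas 2.3.3 and scipy 1.17.1.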

Additional observations from a re-analysis of the deposited data

How the results depend on the processing

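No replicate could be left out, since each population is 1 library. Rescaling by the upper quartile moved every median: 0.37 for all members, 0.34 for activators, 0.39 for inhibitors and 0.33 for the wider list, where the median of all genes was 0.26; 1 member, Themis, then passed 2-fold. At least 1.5-fold, 2 members were higher as deposited and 7 after rescaling by the upper quartile, and 2 genes of the wider list were higher and 1 lower as deposited. Assigning the modulators to either side took the gap of medians from 0.048 to 0.011. With a pseudocount of 0.1, 1 gene of the wider list passed 2-fold in each direction, Rnf128 and Homer3. In all, 73 of 83 alternative values of the summary results stayed between the medians of the genes' counting bounds or, for counts, within 1.5 times. Some of these values could not move. All members passed both filters, and counts of 0 at 2-fold had to stay 0 at 4-fold. The sign turned for 8 members by the upper quartile (Plcg1, Vav3, Sos1, Ppp3ca, Orai1, Itpr3, Cbl and Ubash3a), for Itpr2 and Ptpn22 with the median gene at 0 or without the 100 highest genes, and for Ptpn22 with equal sums. Depth limits Themis, Sla2, Vav3 and Nck1 most among members.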
